A study of Mus musculus with 12 samples.

Results

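The transcripts of 10 chemokines were followed through the kidneys of 12 male mice, none older than 3 months. They were the rows of the deposited count table whose symbol was Ccl2, Ccl5, Cxcl1, Cxcl9, Cxcl10, Cxcl12, Cxcl13, Cxcl14, Cxcl16 or Cx3cl1, which are 10 of the 39171 genes in that table. All 10 had counts high enough to be tested. Of the 12 mice, 4 were wild-type. The other 8 were homozygous for the M743T knock-in of Gne, the gene of the enzyme that opens sialic acid synthesis. The submitters classed 4 of these as healthy and 4, of the same genotype, as sick. The knock-in is carried in every tissue, and the sources used here give neither the signs by which a mouse was classed as sick nor the strain and litters.

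Chemokines are small secreted proteins that bind to G protein-coupled receptors on leukocytes and steer their movement along a gradient. Inflammatory chemokines such as Ccl2, Ccl5 and Cxcl1 are switched on in stressed tubular cells, fibroblasts and macrophages, largely through NF-kB, while Cxcl9 and Cxcl10 are classic targets of interferon-gamma. Homeostatic chemokines such as Cxcl12 and Cxcl13 place cells within tissues and lymphoid organs. Cxcl16 and Cx3cl1 differ from the rest in being made as transmembrane proteins, which tether leukocytes and can also be cut free.

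The libraries held 13189478 to 19493856 counts in wild-type, 18191087 to 21925419 in healthy knock-in and 10605546 to 22633684 in sick mice. Transcript levels are counts per 1000000 (CPM) of the library size after TMM scaling, whose factors were 0.839 to 0.901, 0.804 to 0.933 and 1.23 to 1.39 in those groups. A substitution cannot be checked in counts per gene. All 8 markers of the proximal tubule were lower in sick than in wild-type mice, and their summed level was 1903 to 3216 CPM against 11473 to 15051 CPM. Transcripts of other tissues also moved with the groups. The summed level of 5 skeletal muscle genes was 162 to 263 CPM in the healthy knock-in libraries, 0.485 to 2.02 CPM in wild-type and 1.05 to 11.2 CPM in sick ones. That of 5 adipose genes was 20.4, 287, 236 and 1105 CPM in sick mice 1 to 4. It was 5.54 to 49.1 CPM in wild-type and 3.12 to 27.9 CPM in healthy knock-in mice. A list of 5 lymph node genes includes 2 chemokine genes, Ccl21a and Ccl19, at 3.91 and 1.70 CPM in sick mouse 4. For the 5 the sum was 2.23, 1.66, 1.53 and 6.58 CPM in sick mice 1 to 4. In wild-type mice it was 1.99 to 3.30 CPM and in healthy knock-in mice 0.795 to 4.23 CPM. Their part in the chemokine results was not tested. In bulk tissue, fewer cells of a type and less RNA per cell cannot be told apart, and the same holds for more cells and more RNA.

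In sick knock-in kidneys, 7 of the 10 chemokine transcripts were higher than in wild-type kidneys and 0 were lower. Cxcl13, Cxcl1, Cxcl14, Ccl2 and Ccl5 rose by 2.21 to 5.44 on the log2 scale, and Cxcl16 and Cx3cl1 by about 1. Cxcl9, Cxcl10 and Cxcl12 did not pass the test, which was edgeR's quasi-likelihood F test with Benjamini-Hochberg adjustment over 15589 genes and a threshold of 0.05. Of all genes tested, 25.9% rose and 25.0% fell in this comparison, or 54.0% and 10.3% with library totals as the scale in place of TMM. The median log2 fold change of the 10 chemokines was 1.66, beside 0.02 over all genes tested. In each of the 7 that rose the lowest sick mouse lay above the highest wild-type mouse, a separation that 22.7% of all genes tested showed.

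**Figure D1:**
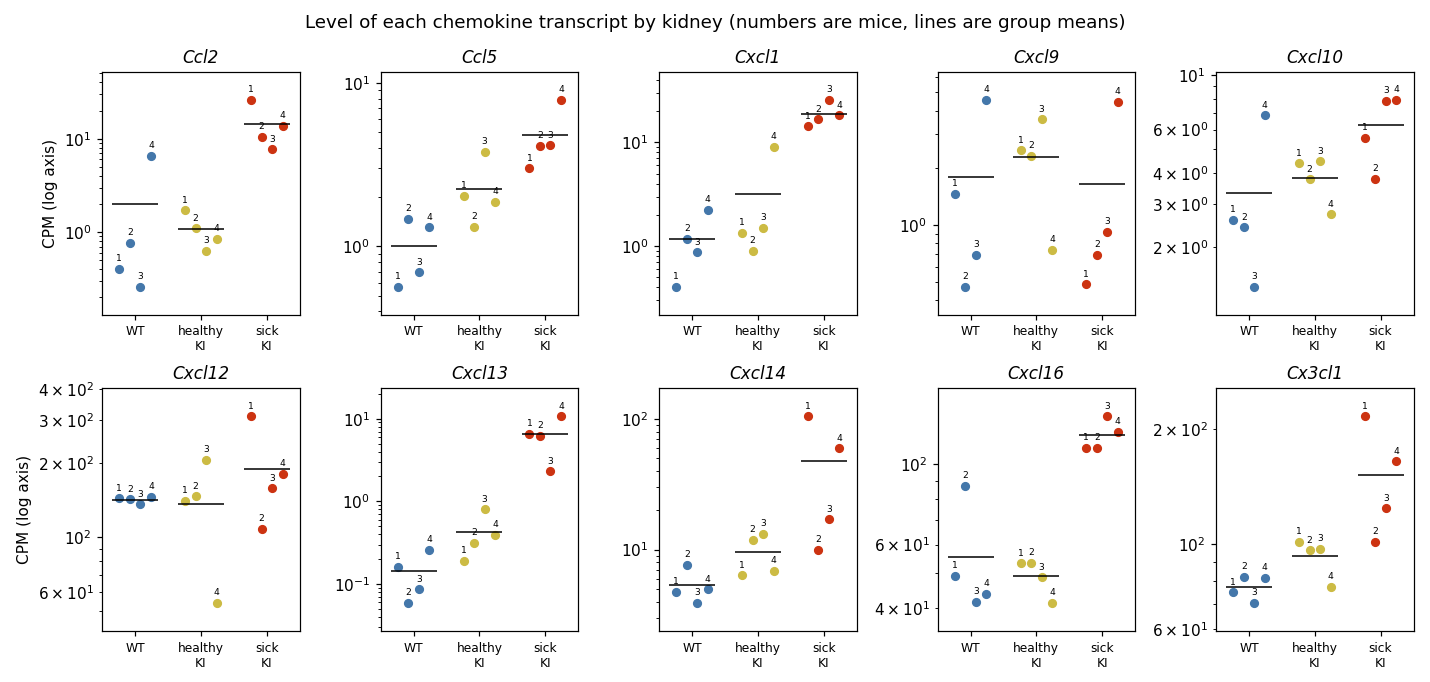
Level of each chemokine transcript in CPM (log axis, scaled separately for each gene) in kidneys of the 3 groups of 4 mice. Points are mice, with their number, and lines are group means. Sick mice lie apart from wild-type mice in Ccl2, Ccl5, Cxcl1, Cxcl13, Cxcl14, Cxcl16 and Cx3cl1 and overlap with them in Cxcl9, Cxcl10 and Cxcl12.

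The stretches in front of 4 of these genes are shown because they set a pair that rose, Cxcl1 and Cxcl13, beside the interferon-linked pair Cxcl9 and Cxcl10, which did not pass the test. Each line is the 250 bases before the RefSeq start on GRCm38.p6, read 5′ to 3′ along the strand of the gene. Capitals mark matches on either strand to a kB-type motif, spelled GGGANNNNCC, and to an ISRE-type motif of interferon-responsive promoters, spelled TTTCNNTTTC. The windows are chr5:90890995-90891244 (forward strand), chr5:95956689-95956938 (forward), chr5:92328080-92328329 (reverse) and chr5:92348890-92349139 (reverse).
Cxcl1: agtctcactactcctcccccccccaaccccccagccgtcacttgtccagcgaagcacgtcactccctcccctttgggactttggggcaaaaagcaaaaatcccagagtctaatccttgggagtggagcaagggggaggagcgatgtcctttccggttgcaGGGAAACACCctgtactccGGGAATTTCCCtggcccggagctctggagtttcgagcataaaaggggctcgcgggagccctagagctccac
Cxcl13: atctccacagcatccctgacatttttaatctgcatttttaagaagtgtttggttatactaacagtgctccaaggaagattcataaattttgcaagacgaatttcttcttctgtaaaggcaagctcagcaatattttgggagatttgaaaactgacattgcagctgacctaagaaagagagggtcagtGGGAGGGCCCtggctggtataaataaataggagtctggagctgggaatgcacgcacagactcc
Cxcl9: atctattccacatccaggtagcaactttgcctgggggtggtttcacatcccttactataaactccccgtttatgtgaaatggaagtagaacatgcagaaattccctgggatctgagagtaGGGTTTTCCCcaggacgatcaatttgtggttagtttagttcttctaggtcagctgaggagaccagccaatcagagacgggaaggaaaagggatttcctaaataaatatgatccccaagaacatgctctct
Cxcl10: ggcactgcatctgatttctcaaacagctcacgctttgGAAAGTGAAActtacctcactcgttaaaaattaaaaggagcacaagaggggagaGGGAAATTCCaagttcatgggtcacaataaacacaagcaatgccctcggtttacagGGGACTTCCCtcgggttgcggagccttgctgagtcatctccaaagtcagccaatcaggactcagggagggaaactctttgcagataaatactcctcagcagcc
The Cxcl1 window held 3 kB-type matches, of which 2 overlap in the stretch GGGAATTTCCC. Cxcl10 held 2 kB-type matches and 1 ISRE-type match, GAAAGTGAAA. Cxcl9 and Cxcl13 each held 1 kB-type match. Among 32817 RefSeq promoters of the same length, 17.6% held a kB-type and 2.97% an ISRE-type match. A match is a run of letters and not a measured binding site.

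RefSeq entries were found for 7 of the 10 genes, and none for Ccl2, Ccl5 and Cxcl16. Cxcl14 held 1 ISRE-type match and no kB-type match, and in Cxcl12 neither was found. Shorter motifs were searched on both strands as well. A GAS-type motif, TTCNNNGAA, was found in Cxcl14 (7.01% of all promoters), an AP-1-type motif, TGANTCA, in Cxcl10 (6.75%), and TATAAA in Cxcl9 and Cxcl13 (12.4%). None of these overlapped a match of another kind. The Cx3cl1 window was not used, since its RefSeq start lies 171 bases inside the gene of the annotation used. So a kB-type match stood in front of 2 of the transcripts that rose, Cxcl1 and Cxcl13, and of 2 that did not pass, Cxcl9 and Cxcl10. Ccl2, Ccl5, Cxcl16 and Cx3cl1, for which no window was used, all rose. The genes that rose can therefore not be set against those that did not.

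**Figure D2:**
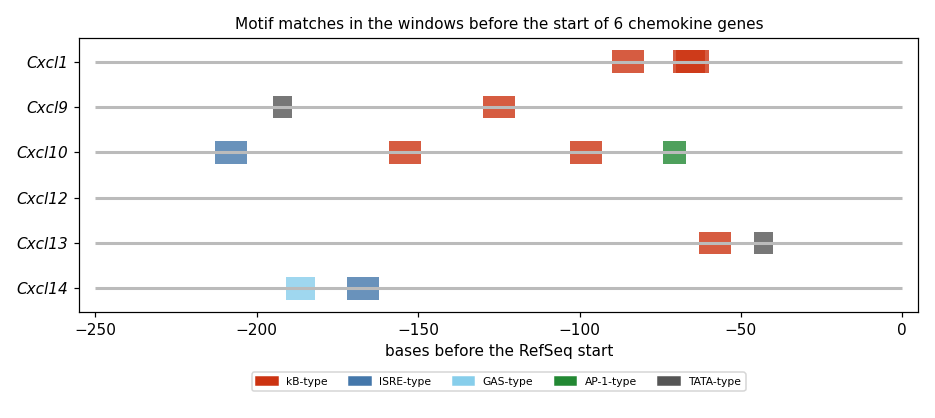
Motif matches in the 250 bases before the RefSeq start of 6 chemokine genes (horizontal axis, bases before the start). Boxes are matches on either strand, coloured by motif. kB-type matches stand in Cxcl1, Cxcl9, Cxcl10 and Cxcl13, and ISRE-type matches in Cxcl10 and Cxcl14.

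Cxcl1, which draws neutrophils through Cxcr2, lies on chromosome 5 (GRCm38, 90891241 to 90893115, forward strand). In mice 1 to 4 its level was 0.405, 1.18, 0.867 and 2.22 CPM in wild-type, 1.33, 0.892, 1.49 and 9.08 CPM in healthy knock-in and 14.3, 16.7, 25.6 and 18.2 CPM in sick knock-in kidneys. All sick mice stood above all others, and healthy mouse 4 stood above the other healthy mice. The mean was 18.7 ± 4.88 CPM in sick mice against 1.17 ± 0.770 CPM in the wild-type group (SD, n = 4 each), a log2 fold change of 3.96 ± 0.71 (SE; edgeR adjusted p = 0.000549). Against healthy knock-in mice the log2 fold change was 2.54 ± 0.64 (edgeR adjusted p = 0.00609), and it was 3.90 when healthy mouse 4 was left out. Markers of the neutrophils that Cxcl1 attracts were scarce. Of 10 neutrophil genes 5 could be tested. In sick against wild-type mice 3 of them rose (25.9% of all genes tested did): Csf3r by 2.02, S100a8 by 2.42 and Mmp8 by 3.30. Their 10 genes summed to 1.78 to 5.02 CPM in wild-type, 3.89 to 13.5 CPM in healthy knock-in and 6.29 to 19.9 CPM in sick mice, and Ly6g was at or near 0 in all groups (at most 0.130 CPM). The highest healthy library in that sum was mouse 4, the one with the high Cxcl1 level. The calls of Mmp8 and S100a8 were lost when single libraries were left out, for S100a8 without sick mouse 4 (edgeR adjusted p = 0.0714) and for Mmp8 without any one of 7 of the 8 libraries compared (edgeR adjusted p = 0.0575 to 0.103).

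Ccl2, the monocyte attractant that acts through Ccr2, lies on chromosome 11 (82035571 to 82037453, forward strand). Its level was 0.405, 0.766, 0.260 and 6.52 CPM in wild-type, 1.72, 1.10, 0.630 and 0.852 CPM in healthy knock-in and 26.0, 10.5, 7.67 and 13.8 CPM in sick knock-in mice 1 to 4. Wild-type mouse 4 was close to the lowest sick mouse, while its 3 group mates were below 1 CPM. The log2 fold change against wild-type mice was 2.83 ± 0.77 (SE; edgeR adjusted p = 0.00845), and 4.84 without wild-type mouse 4. Against healthy knock-in mice it was 3.75 ± 0.82 (edgeR adjusted p = 0.00236).

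Ccl5, which draws T cells and myeloid cells through Ccr1, Ccr3 and other receptors, lies on the same chromosome (83525778 to 83530518, reverse strand). It stood at 0.566, 1.47, 0.693 and 1.30 CPM in wild-type, 2.03, 1.31, 3.78 and 1.87 CPM in healthy knock-in and 3.00, 4.12, 4.14 and 7.86 CPM in sick mice. Healthy knock-in mice lay between the other groups and overlapped with both. Ccl5 rose by 2.21 ± 0.43 against wild-type (SE; edgeR adjusted p = 0.000987). Its difference from healthy knock-in mice was 1.09 ± 0.40 (edgeR adjusted p = 0.0410). That call was lost when healthy mouse 1, 2 or 4 or sick mouse 2, 3 or 4 was left out, with values of 0.74 to 1.15 and edgeR adjusted p of 0.0501 to 0.152.

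Cxcl9 and Cxcl10 are the interferon-linked ligands of Cxcr3, the receptor of activated T and NK cells. Cxcl9 (chromosome 5, 92321347 to 92328079, reverse strand) was at 1.46, 0.472, 0.693 and 4.57 CPM in wild-type, 2.48, 2.31, 3.61 and 0.738 CPM in healthy knock-in and 0.487, 0.697, 0.921 and 4.47 CPM in sick mice. Mouse 4 was the highest of the wild-type and of the sick group and the lowest of the healthy knock-in group. The log2 fold change of sick against wild-type mice was -0.15 ± 0.80 (SE; edgeR adjusted p = 0.891), with a 95% interval of -1.89 to 1.59. It was 0.91 without wild-type mouse 4 and -1.39 without sick mouse 4, and 0.45 with library totals as the scale.

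Cxcl10 (92346638 to 92348889 on the same strand) was at 2.59, 2.42, 1.39 and 6.85 CPM in wild-type, 4.38, 3.78, 4.46 and 2.73 CPM in healthy knock-in and 5.55, 3.78, 7.83 and 7.91 CPM in sick mice. The 3 other wild-type mice lay below all sick mice, and wild-type mouse 4 lay among them. Its log2 fold change was 0.90 ± 0.41 (SE; edgeR adjusted p = 0.0870), with a 95% interval of 0.0034 to 1.80. Without wild-type mouse 4 it was 1.53 (edgeR adjusted p = 0.00283), and over the alternatives tried the adjusted p ran from 0.00283 to 0.199. Exons of Cxcl10 share 133 bases with Art3 on the other strand, and it is not given whether the libraries keep strand.

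Wild-type mouse 4 was the highest wild-type library for 6 of the 10 chemokines and for 13 of 15 tested genes of the interferon-gamma axis. In 2 genes chosen after their values were seen, Igtp and Iigp1, GTPases induced by interferon-gamma, it stood at 29.7 and 21.3 CPM, against 8.41 to 12.3 and 4.33 to 5.66 CPM in its 3 group mates. Without this mouse 8 chemokines rose in sick against wild-type kidneys, the 7 above and Cxcl10, as did 24.2% of all genes tested in that fit.

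Cxcl12 holds Cxcr4-bearing leukocytes and progenitors in place and is also bound by the decoy receptor Ackr3. It lies on chromosome 6 (117168535 to 117181367, forward strand). Wild-type mice were close together at 144, 143, 136 and 146 CPM. Healthy knock-in mice were at 140, 147, 207 and 54.0 CPM and sick mice at 311, 108, 158 and 182 CPM. The spread was wider in both knock-in groups, and sick mouse 2 lay below all wild-type mice. The log2 fold change of sick against wild-type was 0.42 ± 0.35 (SE; edgeR adjusted p = 0.351), with a 95% interval of -0.35 to 1.18.

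Cxcl13, which guides B cells and follicular T cells through Cxcr5, was the lowest of the 10 per kilobase in wild-type kidneys. It lies on chromosome 5 (95956951 to 95961068, forward strand). Its counts were 2, 1, 1 and 4 in wild-type mice, 3, 6, 14 and 7 in healthy knock-in mice and 161, 188, 30 and 209 in sick mice. That is 0.162, 0.0589, 0.0867 and 0.261 CPM, then 0.191, 0.315, 0.801 and 0.397 CPM, then 6.53, 6.24, 2.30 and 10.7 CPM. The lowest sick mouse was above the highest mouse of either other group. It rose by 5.44 ± 0.61 against wild-type (SE; edgeR adjusted p = 1.88e-05) and 3.90 ± 0.52 against healthy knock-in mice (edgeR adjusted p = 7.75e-05). With 8 counts over the wild-type group, the size of the first rests on few reads. Of 6 tested B and plasma cell genes, Cd22, an inhibitory receptor of B cells, rose by 1.66, 0 fell and the median was -0.34. The share that rose over all genes tested was 25.9%. The call of Cd22 was lost without wild-type mouse 3 or 4 or sick mouse 1 or 4 (edgeR adjusted p = 0.0715 to 0.0820). The receptor gene Cxcr5 was too low to be tested, at 0.118 to 0.433 CPM in wild-type and 0.153 to 0.463 CPM in sick mice.

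Lymphotoxin signalling is a known driver of Cxcl13 in lymphoid stroma. Of 6 tested genes listed for it and for the B cell niche, 3 rose and 0 fell in sick against wild-type mice. Over all genes tested 25.9% rose, or 54.0% with library totals. Tnfsf13b, the B cell survival factor BAFF, rose by 3.77 ± 0.51, Ltb by 1.87 ± 0.51 and Tnfrsf1a by 1.14 ± 0.10 (SE). The other 3, Lta, Ltbr and Map3k14, did not pass the test. Ltbr, the lymphotoxin receptor, was at 78.2 to 140 CPM in wild-type and 91.6 to 109 CPM in sick mice. The part of these genes in the Cxcl13 level was not tested.

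Cxcl14, a chemokine of epithelia and stroma, lies on chromosome 13 (56288643 to 56296551, reverse strand). It was at 4.77, 7.66, 3.90 and 4.96 CPM in wild-type, 6.35, 11.9, 13.2 and 6.87 CPM in healthy knock-in and 105, 9.93, 17.0 and 59.5 CPM in sick mice. Sick mice 1 and 4 stood far above sick mice 2 and 3, and mouse 2 lay within the range of the healthy knock-in mice. Cxcl14 rose by 3.16 ± 0.63 against wild-type (SE; edgeR adjusted p = 0.00113) and 2.32 ± 0.60 against healthy knock-in mice (edgeR adjusted p = 0.00683). Without sick mouse 1 they were 2.42 and 1.59.

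Against wild-type mice, the transmembrane ligands rose by smaller folds than the secreted chemokines that passed the test. Cxcl16, the ligand of Cxcr6 that also takes up oxidised lipoprotein, lies on chromosome 11 (70453983 to 70459984, reverse strand). It was at 49.2, 87.2, 41.6 and 43.8 CPM in wild-type, 53.2, 53.5, 48.7 and 41.3 CPM in healthy knock-in and 111, 111, 136 and 123 CPM in sick mice. The 4 sick mice were close together and above all others, and wild-type mouse 2 stood above its group. Cxcl16 rose by 1.12 ± 0.21 against wild-type (SE; edgeR adjusted p = 0.000808) and 1.29 ± 0.21 against healthy knock-in mice (edgeR adjusted p = 0.000353). Exons of Cxcl16 share 552 bases with Zmynd15 on the other strand, so reads of the 2 genes may not be separable.

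Cx3cl1, or fractalkine, tethers Cx3cr1-bearing monocytes and macrophages and lies on chromosome 8 (94772009 to 94782427, forward strand). Its level was 74.9, 82.1, 70.2 and 81.6 CPM in wild-type, 102, 96.3, 97.3 and 77.5 CPM in healthy knock-in and 216, 101, 124 and 165 CPM in sick mice. Sick mouse 2 was just below the highest healthy knock-in mouse. Cx3cl1 rose by 0.97 ± 0.20 against wild-type (SE; edgeR adjusted p = 0.00140) and 0.70 ± 0.20 against healthy knock-in mice (edgeR adjusted p = 0.0115).

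The proteases that release or clip these ligands were a list of 6, of which 3 rose and 0 fell in sick against wild-type mice. The share that rose over all genes tested was 25.9%, or 54.0% with library totals. Adam10 and Adam17, the sheddases of Cxcl16 and Cx3cl1, rose by 0.44 ± 0.12 and 0.38 ± 0.11 (SE). Mmp2, a gelatinase that trims Ccl and Cxcl ligands, rose by 3.43 ± 0.28. Dpp4, which clips Cxcl10 and Cxcl12, was at 63.1 to 120 CPM in wild-type and 61.6 to 94.5 CPM in sick mice, with a log2 fold change of -0.24 ± 0.21 (0.34 with library totals as the scale).

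**Figure D3:**
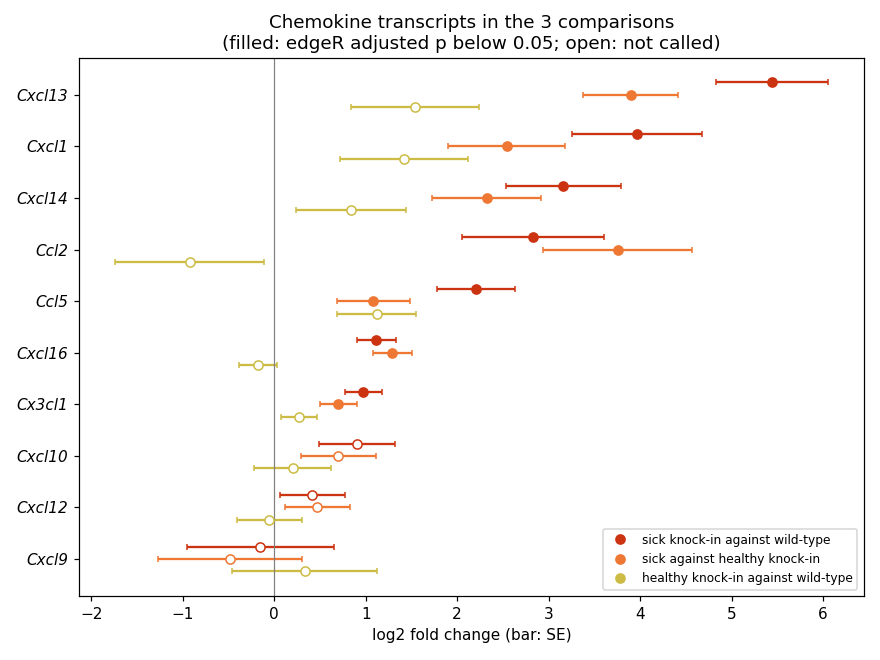
Log2 fold change of the 10 chemokine transcripts in the 3 comparisons (points, with SE bars). Filled points have an edgeR adjusted p below 0.05. The values against wild-type run from 5.44 in Cxcl13 to -0.15 in Cxcl9, and all points for healthy knock-in against wild-type are open.

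Per kilobase of exon, which allows genes to be compared roughly with one another, the order of the 10 changed between groups. The length was that of all annotated exons of a gene, merged. In Cxcl1 and Cxcl10 these form 1 block over the whole gene (1875 and 2252 bases), so introns may be counted in it. Their levels per kilobase may therefore be too low, as may that of Cxcl12, with 8176 bases. In wild-type mice Cx3cl1 (19.6 CPM per kb), Cxcl16 (18.4) and Cxcl12 (17.4) came first and overlapped with one another over mice. They were apart from Cxcl14, the next at 2.91 CPM per kb. From Cxcl14 down to Cxcl13, the last at 0.124 CPM per kb, every neighbour in the order overlapped with the next. In healthy knock-in mice the same 3 genes led, at 16.3 to 23.7 CPM per kb. Cx3cl1 and Cxcl16 were again apart from Cxcl14 at 5.24, whereas Cxcl12, which was at 6.60 CPM per kb in its lowest mouse, overlapped with it. In sick mice Cxcl16 (39.8 CPM per kb) and Cx3cl1 (38.6) led, followed by Cxcl14 (26.2), Cxcl12 (23.2), Ccl2 (12.7), Cxcl1 (9.98), Cxcl13 (5.61), Ccl5 (4.98), Cxcl10 (2.78) and Cxcl9 (0.545). The one pair of neighbours there that did not overlap was Cxcl10 and Cxcl9. The 4 sick mice did not rank alike. Mouse 1 was the highest for Ccl2, Cxcl12, Cxcl14 and Cx3cl1, mouse 4 for Ccl5, Cxcl9, Cxcl10 and Cxcl13, and mouse 3 for Cxcl1 and Cxcl16. Mouse 2 was the highest for 0 and the lowest for 5 of the 10.

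Of 10 receptors of these ligands 8 could be tested, and 5 rose and 0 fell in sick against wild-type mice, with a median log2 fold change of 1.97. Over all genes tested 25.9% rose and 25.0% fell, or 54.0% and 10.3% with library totals. Ccr2, the Ccl2 receptor of inflammatory monocytes, was at 3.88, 7.07, 11 and 10.4 CPM in wild-type and 87.5, 19.9, 32.3 and 70.5 CPM in sick mice, without overlap. It rose by 2.70 ± 0.47 (SE; edgeR adjusted p = 0.000455). Ccr1, a receptor of Ccl5, rose by 3.40 ± 0.64, with 25.9 CPM in sick mouse 1 against 5.22 to 6.58 CPM in the other sick mice. Its log2 fold change was 2.52 without sick mouse 1 and 4.03 without wild-type mouse 4. Cx3cr1, the receptor of Cx3cl1, rose by 2.59 ± 0.49. It too was highest in sick mouse 1, at 66.0 CPM against 9.03 to 27.3 CPM in the other sick mice, and without that mouse the value was 1.83.

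Cxcr3 rose by 2.45 ± 0.63 (SE), and its highest wild-type mouse, mouse 4, overlapped with the sick mice. Without that mouse the value was 3.59. Cxcr4 rose by 1.48 ± 0.30, from 3.24 to 4.77 CPM in wild-type to 7.34 to 13.3 CPM in sick mice, while its ligand Cxcl12 did not pass the test. The Cxcl1 receptor Cxcr2 was at 0.780 to 1.36 CPM in wild-type and 0.537 to 2.21 CPM in sick mice, with a log2 fold change of 0.31 ± 0.54. Ackr3, which clears Cxcl12, was at 40.3 to 59.9 and 39.6 to 53.0 CPM, with a log2 fold change of -0.08 ± 0.36, or 0.51 with library totals as the scale. Cxcr6, the receptor of Cxcl16, had a log2 fold change of 0.91 ± 0.38 (edgeR adjusted p = 0.0621). It passed the threshold without wild-type mouse 4 (1.26, edgeR adjusted p = 0.0178) or without sick mouse 2 (1.08, edgeR adjusted p = 0.0382). With library totals as the scale it passed as well (1.51, edgeR adjusted p = 0.00376).

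Against healthy knock-in mice 4 of the 8 receptors rose and 0 fell, where 24.5% of all genes tested rose (55.0% with library totals). The 4 were Ccr1, Ccr2, Cx3cr1 and Cxcr4. Cxcr3 was not among them, with a log2 fold change of 0.73 ± 0.54 and 0.795 to 1.72 CPM in healthy knock-in mice, against 0.764 to 3.39 CPM in sick mice. With library totals as the scale Cxcr3 was at 1.30 and Cxcr6 at 1.20 on the log2 scale (edgeR adjusted p = 0.0499 and 0.0123). Of 12 other chemokine receptors 6 could be tested. Against healthy knock-in mice 0 of them rose and 1 fell, Ccr10, a receptor of Ccl28. It was at 0.577 to 0.953 CPM in healthy knock-in and 0.133 to 0.463 CPM in sick mice, a fall of 1.47 on the log2 scale (SE 0.41; edgeR adjusted p = 0.0107) that did not pass with library totals as the scale (-0.88, edgeR adjusted p = 0.0794). Against wild-type mice 1 rose and 0 fell, where 25.9% of all genes tested rose. Ackr2, a decoy that scavenges inflammatory Ccl ligands, rose by 1.24 ± 0.39. Its call was lost without wild-type mouse 2 or sick mouse 4 (edgeR adjusted p = 0.0512 and 0.0554).

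**Figure D4:**
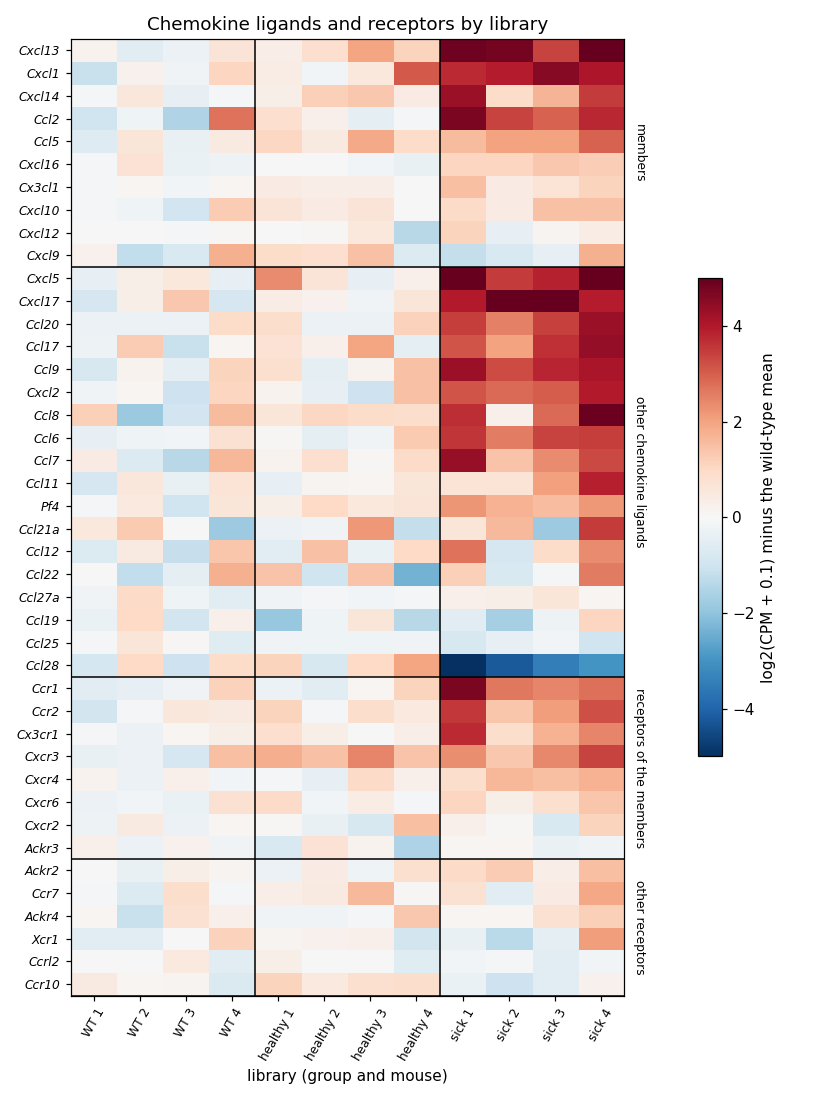
Heat map of chemokine ligands and receptors (rows) in the 12 libraries (columns), as log2(CPM + 0.1) minus the wild-type mean of the gene, with colours limited at the ends of the bar. The 4 sick libraries are red for 7 members and most of their receptors, Ccl28 is blue in them, and wild-type mouse 4 is redder than the other wild-type libraries for Ccl2 and Cxcl9.

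Among the other 28 chemokine ligands 18 could be tested, of which 11 rose and 1 fell in sick against wild-type mice, with a median log2 fold change of 2.82. The shares over all genes tested were 25.9% and 25.0%, or 54.0% and 10.3% with library totals. Cxcl5, which shares the receptor Cxcr2 with Cxcl1, had 2 counts in the whole wild-type group, and its level in sick mice was 4.09, 1.39, 1.77 and 7.61 CPM. Ccl20, the ligand of Ccr6, also had 2 counts in that group and reached 0.598 to 2.36 CPM in sick mice. Cxcl17, a mucosal chemokine, was at 0.000, 0.118, 0.347 and 0.000 CPM in wild-type and 2.64, 7.07, 7.98 and 2.62 CPM in sick mice, a log2 fold change of 5.46 ± 0.72 (SE), or 6.63 without wild-type mouse 3.

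Ccl28, an epithelial chemokine that draws cells through Ccr10 and Ccr3, went the other way. It was at 93.4, 336, 82.1 and 325 CPM in wild-type, 371, 98.5, 338 and 675 CPM in healthy knock-in and 5.03, 9.23, 15.6 and 21.4 CPM in sick mice. All sick mice were below all other mice, and it fell by 4.04 on the log2 scale (SE 0.68; edgeR adjusted p = 0.000372).

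Genes known to answer NF-kB rose almost as a whole in sick against wild-type mice. Of 17 tested, 16 were higher and 1 lower, with a median log2 fold change of 1.90. Over all genes tested 25.9% rose and 25.0% fell, or 54.0% and 10.3% with library totals. The adhesion molecule Vcam1 rose by 3.55 ± 0.30, Tnf by 2.90 ± 0.75, Nfkbiz by 2.69 ± 0.26 and Birc3 by 2.48 ± 0.21 (SE). Without wild-type mouse 4 the value of Tnf was 4.60. The one that fell was Sod2, the mitochondrial superoxide dismutase, by 1.84. It was named after its values were seen. Of the interferon-gamma axis 9 of 15 tested genes rose and 0 fell, with a median of 0.90. They included Socs1 (1.88 ± 0.40), the receptor chain Ifngr1 (1.83 ± 0.15) and Gbp3 (1.63 ± 0.24). Ciita, the class II transactivator, rose by 1.40 ± 0.49, a call that was lost without wild-type mouse 1 or 2 or sick mouse 1 or 4 (edgeR adjusted p = 0.0595 to 0.106). Ifng itself was too low to be tested, at 0.000 to 0.0996 CPM in sick mice.

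Markers of cells that make or follow chemokines differed as well, where 25.9% of all genes tested rose and 25.0% fell (54.0% and 10.3% with library totals). All 12 macrophage genes rose in sick against wild-type mice, with a median log2 fold change of 3.11 and a summed level of 921 to 1846 CPM against 143 to 278 CPM. Sick mouse 1, highest for Ccl2 and Cx3cl1, was also highest in that sum, and sick mouse 2 was lowest. Lyz2 rose by 3.74 ± 0.46 (4.34 without wild-type mouse 4) and Itgam by 3.68 ± 0.50 (SE). Of the fibroblast and pericyte genes 9 of 9 rose, with a median of 2.60, among them Col1a1 (3.87 ± 0.53). Of the T and NK cell genes 9 of 11 tested rose, among them Cd8b1 (2.40 ± 0.47) and Cd4 (2.16 ± 0.52, or 2.91 without wild-type mouse 4), from a summed level of 4.16 to 8.68 CPM in wild-type to 10.7 to 32.3 CPM in sick mice. Genes of NK and cytotoxic cells on this list were low and did not move alike. In wild-type and sick mice, Klrb1c was at 0.0589 to 0.433 and 0.432 to 1.44 CPM. Nkg7 was at 0.173 to 0.707 and 0.608 to 0.930 CPM, and Gzma at 0.0867 to 1.04 and 0.166 to 0.767 CPM. The untested Gzmb was at 0.0809 to 0.457 and 0.122 to 0.514 CPM. Ncr1, also untested, was at 0.433 to 0.566 and 0.000 to 0.257 CPM, with all sick mice below all wild-type mice. Dendritic cell genes rose in 4 of 7, among them Itgax (2.88 ± 0.56). Of 8 endothelial genes 0 rose and 1 fell, Kdr, by 1.06 on the log2 scale, a call that library totals as the scale did not give (-0.47, edgeR adjusted p = 0.0756). The part of these cell markers in the chemokine levels was not tested.

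**Figure D5:**
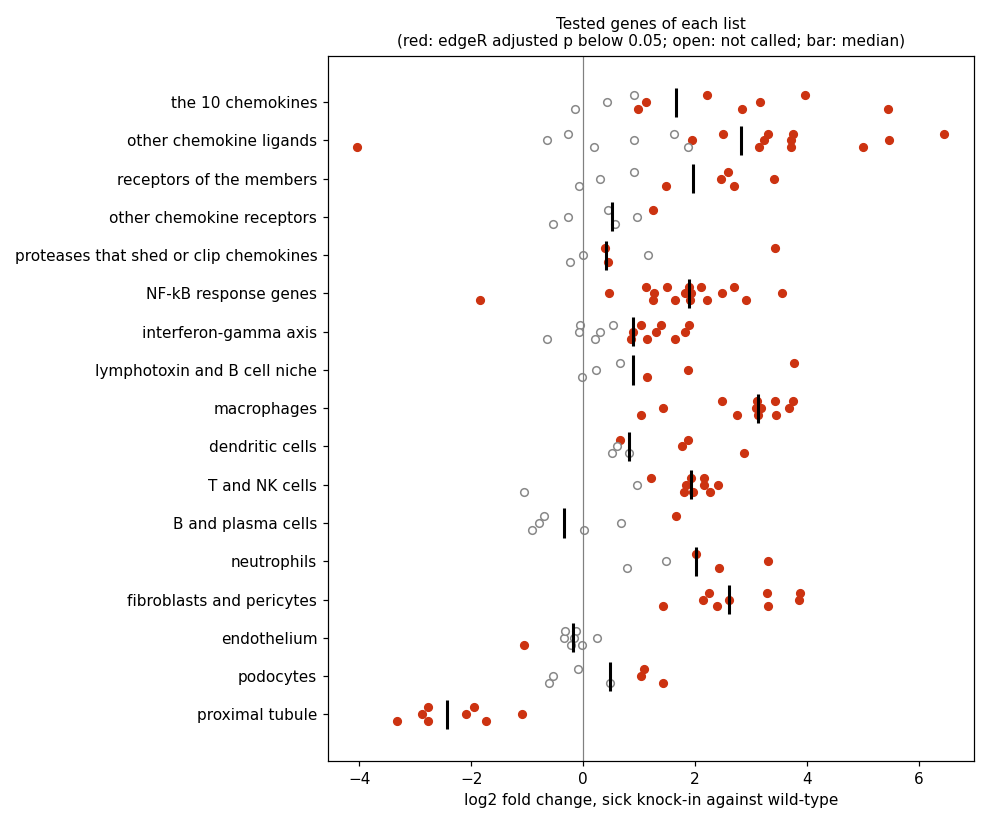
Log2 fold change, sick knock-in against wild-type, of each tested gene in the lists (points, red where the edgeR adjusted p was below 0.05) with the median of each list (bar). All macrophage and fibroblast points are red and right of 0, all proximal tubule points are red and left of 0, and 7 of the 10 chemokine points are red.

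Between healthy knock-in and wild-type mice 0 of the 10 chemokines passed the test in edgeR and 0 in DESeq2. Of all genes tested, 0.308% rose and 0.00641% fell in this comparison. At an unadjusted p below 0.05 there were 2 chemokines, Ccl5 and Cxcl13, and 700 of all genes tested. The median log2 fold change of the 10 was 0.30, beside -0.01 over all genes. Ccl5 had a log2 fold change of 1.12 with a 95% interval of 0.18 to 2.06, and Cxcl13 one of 1.54 with an interval of 0.02 to 3.06 (edgeR adjusted p = 0.912 each). In Cxcl13, healthy mice 2, 3 and 4 were above all wild-type mice. In Cxcl1 the value was 1.42 with an interval of -0.09 to 2.93, and it was 0.05 without healthy mouse 4. In Ccl2 it was -0.93 with an interval of -2.69 to 0.84, and 1.09 without wild-type mouse 4. These intervals leave room for differences of 2-fold or more, whereas that of Cx3cl1, 0.27, ran from -0.16 to 0.70 and that of Cxcl16, -0.17, from -0.63 to 0.28.

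Between sick and healthy knock-in mice, which share the genotype, the same 7 chemokines rose and 0 fell, against a background of 24.5% of all genes tested that rose and 21.9% that fell (55.0% and 9.14% with library totals). The median was 1.19, beside 0.05 over all genes. Ccl2, Cxcl1, Cxcl13 and Cxcl16 did so without overlap, a separation shown by 24.0% of all genes. This comparison and that against wild-type mice use the same 4 sick libraries, so their likeness is no independent support. Cxcl9, Cxcl10 and Cxcl12 had log2 fold changes of -0.48, 0.70 and 0.47 (edgeR adjusted p = 0.644, 0.180 and 0.297). Their 95% intervals were -2.19 to 1.23, -0.19 to 1.59 and -0.30 to 1.24.

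Scaling mattered for 2 of these 3. With library totals in place of TMM, which moves the median gene of sick against wild-type by 0.59 on the log2 scale, Cxcl10 rose by 1.50 and Cxcl12 by 1.02 against wild-type (edgeR adjusted p = 0.00634 and 0.0314). Against healthy knock-in mice they rose by 1.27 and 1.05 (edgeR adjusted p = 0.0150 and 0.0285). The same scaling gave 1.58 for Cx3cl1 and 1.70 for Cxcl16 against wild-type.

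In the authors' deposited table, 4 of the 10 chemokines had an adjusted p below 0.05 in sick against wild-type mice, Ccl5, Cxcl1, Cxcl13 and Cxcl14, with Ccl2 at 0.0594, Cxcl16 at 0.0598 and Cx3cl1 at 0.167. In the same source 5 passed in sick against healthy knock-in mice, Ccl2, Cxcl1, Cxcl13, Cxcl14 and Cxcl16, and 0 in healthy knock-in against wild-type. The statistics of the authors' deposited table test for a log2 fold change above a minimum of 0.5, a stricter question than a difference from 0.

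The genes whose pattern over the 12 libraries was most like that of a chemokine were found by the root mean square difference of log2 CPM after each gene was centred on its own mean, among 12969 genes with a mean of at least 1 CPM. For Ccl2 they were Clec4n (0.63), Tlr7 (0.66) and Lyz2 (0.70). For Cxcl10 they were Ifi47 (0.31), Gbp5 (0.34) and Cxcr6 (0.36), and for Cxcl9 Xcr1 (0.65), Tlr11 (0.72) and H2-Ob (0.73). For Cxcl1 they were Mmp19, Mt2 and Ms4a6c (0.47 to 0.55), and for Cxcl14 Gpr153, Col15a1 and Igsf10 (0.48 to 0.53). Cxcl13 was closest to Anxa8, Kif1a and Tnc (0.48 to 0.56), Ccl5 to Sh2d2a, Stac and Tpm2 (0.35 to 0.41) and Cxcl12 to Pnmal2, Meis2 and Lmo2 (0.26 to 0.30). The transmembrane ligands had the closest matches, Prkcdbp, Sepw1 and Pvrl2 (0.16 to 0.17) for Cxcl16 and Plekha2, Fcgr2b and Usp11 (0.17 to 0.18) for Cx3cl1. A small distance is easier to reach for a gene that varies little, and all values share the same 12 libraries.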

How the data were processed

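RNA from 12 kidneys was sequenced, 1 library per mouse. Per the labels' protocols, RNA came from a miRvana extraction with a DNase step and libraries from a Trueseq kit. Trim Galore 0.3.7, TopHat2 2.0.11, Cufflinks, DESeq2 1.12.4 and the build GRCm38 are named per the submitters' processing notes. The sources used here name no counting program, annotation or strand setting. The deposited table holds raw counts per Ensembl gene and 12 columns of normalised counts, which were not used, with the authors' fold changes and p-values, per the file headers. The authors' statistic equals the excess of the log2 fold change over 0.5 divided by its SE (within 0.01) in 100% of 10890, 2919 and 10304 genes.

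Groups follow the labels. The analysis used edgeR 4.0.16 (R 4.3.3): filterByExpr by group left 15589 genes, libraries were scaled by TMM, and all 12 libraries entered a quasi-likelihood model whose terms were the 3 group means. Pairs of groups were compared by F tests. The SE is the log2 fold change over the square root of F, and intervals are 95% intervals from the t distribution with the moderated degrees of freedom. They are not adjusted. Between mice, the biological coefficient of variation (common to all genes) was 0.270. The procedure was tested on simulated data for the sick and wild-type groups (15579 genes). It recovered 44 of 100 genes given a log2 change of 1 and 88 of 100 given 2, and 9 of its 141 calls were false (6.38%). Those changes went up or down at random, and every other gene was drawn from its wild-type mean. The simulation therefore did not test scaling where a large share of genes differs, as here, and its rates may not carry over. No 2 libraries held identical counts.

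The 10 chemokines and 23 further lists (225 names with the chemokines, all found, 183 tested) were chosen with earlier results of these data known. Named were the chemokines, their receptors, up to 4 genes of each other list with the largest change past the threshold in sick against wild-type mice, and the 3 genes most like each chemokine. A few genes of these lists are not reported here and were left out of the counts and medians of their lists. Named outside that rule, after their values were seen, were Igtp, Iigp1, Sod2, Dpp4, Ccr10 and the untested Ly6g, Cxcr5 and Ifng. So were Lta, Ltbr, Map3k14, Ccl19, Gzma, Klrb1c, Nkg7 and the untested Ncr1 and Gzmb. Positions and exon lengths are from GENCODE for GRCm38, promoters from RefSeq (GRCm38.p6). Alternatives were DESeq2 size factors, library totals, no filter, a filter of 1 CPM in 4 libraries, DESeq2 1.42.0, the 8 libraries compared, the replicate number as a block, an adjusted p of 0.01, and each library left out.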

Additional observations from a re-analysis of the deposited data

Results flagged for a closer look

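A gap test was made in each group of 4 for every tested chemokine and listed receptor of theirs, 54 groups in all. It asks whether the distance of the highest or lowest mouse to its nearest neighbour, as a share of the range of the group, exceeds Dixon's 95% critical value. It marked 8 groups, and the high mouse in each. Chance would give 2.70 if levels followed a normal distribution. The test was made on CPM without a log scale and many levels were low, so that number may not hold.

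Among the chemokines, Ccl2 was at 6.52 CPM in wild-type mouse 4, against 0.260 to 0.766 CPM in its group mates. Cxcl1 was at 9.08 CPM in healthy knock-in mouse 4, against 0.892 to 1.49 CPM. Cxcl9 was at 4.47 CPM in sick mouse 4, against 0.487 to 0.921 CPM. Cxcl16 was at 87.2 CPM in wild-type mouse 2, against 41.6 to 49.2 CPM.

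Among the receptors, wild-type mouse 4 stood out 3 times. Ccr1 was at 2.09 CPM there, against 0.566 to 0.780 CPM, Cxcr3 at 0.848 CPM, against 0.0867 to 0.177 CPM, and Cxcr6 at 1.96 CPM, against 0.867 to 1.002 CPM. Ccr1 was also at 25.9 CPM in sick mouse 1, against 5.22 to 6.58 CPM in the other sick mice.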

How the results depend on the processing

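The 7 chemokines that rose in sick against wild-type mice passed in every alternative tried, and none fell in any. Library totals gave 9, where 54.0% of all genes tested rose, and leaving out wild-type mouse 4 gave 8, where 24.2% did. In sick against healthy knock-in mice the count ran from 5, at an adjusted p of 0.01 (16.5% of all genes), to 9, with library totals (55.0%). It was 6 without the filter (16.7%) and 6 with the replicate block (23.1%), each time without Ccl5. In healthy knock-in against wild-type mice it was 0 throughout. Whether the replicate numbers pair the mice could not be settled. Of 12 pairs of the same number 4 had deviations correlated above 0.1 (-0.26 to 0.24 over all pairs). Those 4 joined wild-type mice 1 and 4 to knock-in mice of their number (0.17 to 0.24). Among the 12 libraries 6 correlated best with a library of their own number. Under the block 7 chemokines rose against wild-type, and Ccl5 against healthy knock-in mice had an edgeR adjusted p of 0.0609.

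Directions that reversed were all of values that had not passed. Against wild-type in sick mice, Cxcl9 was 0.45, Ackr3 0.51 and Dpp4 0.34 with library totals. Over the leave-outs Cxcl9 ran from -1.39 to 0.91 and Cxcr2 from -0.11 to 0.53. In sick against healthy knock-in mice, Cxcl9 was 0.071 and Cxcr2 0.57 with library totals, Cxcr2 was 0.028 with the replicate block, and over the leave-outs Cxcr2 ran from -0.48 to 0.72 and Ackr3 from -0.24 to 0.47. In healthy knock-in against wild-type mice, leave-outs ran from -1.27 to 1.09 for Ccl2, -0.045 to 0.84 for Cxcl10, -0.32 to 0.21 for Cxcl12 and -0.29 to 0.13 for Cxcl16. The cause was not tested. Depth limits the folds of genes with few counts over the wild-type group, among them Cxcl5 and Ccl20 with 2 each, Mmp8 with 3, Cxcl17 with 6 and Cxcl13 with 8.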
